A study of Mus musculus with 13 samples.

Results

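A set of 10 plasma membrane amino acid transporter genes was examined in the lungs of mice kept in high oxygen: Slc7a11, Slc3a2, Slc7a5, Slc7a1, Slc7a2, Slc38a1, Slc38a2, Slc1a4, Slc1a5 and Slc6a9. They were chosen by symbol and function, as carriers of cystine, cationic, neutral and large neutral amino acids and glycine. All 10 symbols were present among the 32544 gene symbols counted. Of these, 8 entered the test over 12496 genes, and each of the 8 had counts in all 13 libraries. Slc7a5 and Slc6a9 had too few counts to be tested. Wild-type C57BL/6J male mice, bought at 7 weeks of age, breathed either 21% oxygen (Normoxia, n = 7 libraries) or 80% oxygen (Hyperoxia, n = 6 libraries) for 5 days. Perfused whole lung was homogenized, and polyadenylated RNA was read from the 3′ end by Quant-seq.

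Amino acid carriers of the plasma membrane belong to several families that differ in substrate and in mechanism. The light chains Slc7a11 and Slc7a5 reach the cell surface as heterodimers with the glycoprotein heavy chain Slc3a2 (CD98, 4F2hc). Slc7a11 exchanges extracellular cystine for intracellular glutamate and so feeds cysteine into glutathione, the main thiol antioxidant of the cell, which is of particular weight in a tissue that meets inhaled oxygen directly. Genes for many carriers are targets of ATF4, the transcription factor of the amino acid response, and Slc7a11 is also a target of NRF2, the factor of the antioxidant response.

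Sequence upstream of the transporters was examined because these 2 factors bind known elements. RefSeq promoter windows of GRCm38.p6, each from 250 bases before to 50 bases after a transcription start, were at hand for 6 of the 10 genes, in 9 windows: Slc7a11, Slc3a2, Slc7a1, Slc38a2, Slc1a4 and Slc6a9. On both strands, TGATGNAAN (the CEBP-ATF response element) and TGACNNNGC (the core of the antioxidant response element) were searched. The first stood in 2 of the 9 windows, those of Slc7a11 and Slc1a4, and in 3.95% of all 32851 windows. The second stood in 4 of the 9, in some or all windows of Slc38a2, Slc7a1 and Slc6a9, and in 12.4% of all windows. By gene, the first stood in 2 of 6 and the second in 3 of 6, against 4.5% and 14.0% of all 27025 genes. The Slc3a2 window lay inside the annotated gene, away from its 5′ end, and was the only 1 of the 9 whose transcribed part was found in no GENCODE transcript, so its letters are not described as a promoter. Stretches are shown for 3 genes that were higher in hyperoxia and for Slc1a4, the other gene with the first motif. Each is written 5′ to 3′ on the strand of the gene, with matched letters in capitals, and TTTGCATCA, GTTGCATCA and GCGCTGTCA are matches on the opposite strand. A match describes letters in the window and is no evidence of binding.
Slc7a11, chr3:50443643-50443689, minus strand, 76 to 30 bases before the start: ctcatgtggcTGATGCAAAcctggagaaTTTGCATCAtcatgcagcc
Slc1a4, chr11:20332700-20332728, minus strand: tgcctcctgcGTTGCATCAtctccagcct
Slc38a2, chr15:96699737-96699765, minus strand: ccccgcccacTGACGCGGCgccccgccgc
Slc7a1, chr5:148399897-148399925, minus strand: cggccgcgcgGCGCTGTCAttggtgccct
The Slc7a11 window held 2 matches, on opposite strands and 9 bases apart, and the 3 other windows shown held 1 each.

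Libraries held 1607111 to 3387736 counts in normoxia and 2029006 to 4540288 in hyperoxia. At these depths 3 counts, taken as the floor, correspond to 0.656 to 1.84 CPM (the count relative to library size, here scaled by TMM). Floors cover counting error only. Hyperoxia 1 stood apart, with a mean correlation of 0.779 with the other libraries, against 0.886 to 0.919 for the other 12. The libraries also carry letters in their labels, B to M (5 normoxic, 3 hyperoxic) and O to S (2 normoxic, 3 hyperoxic), whose meaning is not given in the sources used here. All 20 alveolar type 1 and type 2 markers examined had counts in every library. The labels do not say that each library came from a separate mouse, so p-values measure the spread between these samples. The 36 pairs of libraries within a group all differed by more than counting noise.

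After 5 days of hyperoxia, 4 of the 8 transporters tested rose and 0 fell (edgeR quasi-likelihood test, adjusted p under 0.05). At an unadjusted p under 0.05, 1 was lower, Slc38a1. DESeq2 and limma-voom also called 4 higher and 0 lower, and limma run on the deposited log CPM table called 4 higher and 1 lower, again Slc38a1. Those that rose were the cationic amino acid carrier Slc7a1, the neutral amino acid carrier Slc38a2, the heavy chain Slc3a2 and the cystine carrier Slc7a11. Among all 12496 genes tested, 22.6% were called, 11.8% higher and 10.8% lower. The normoxic and hyperoxic libraries did not overlap for 3 of the 8 transporters, all 3 higher. The same held for 10.8% of all genes, 5.6% higher and 5.23% lower. The median log2 fold change was 0.26 over the 8 transporters and -0.03 over all genes tested. Of all calls, 52.3% were higher in hyperoxia, a share that was 38.8% when limma was run on the log CPM table, a change of test and scaling together that moved the median of all genes to -0.16, and 42.7% in edgeR with library size alone, where the median was -0.10. The 4 transporters stayed higher and past the threshold in both. In whole lung RNA, a change in the number of cells of a type and a change in RNA per cell cannot be told apart.

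**Figure D1:**
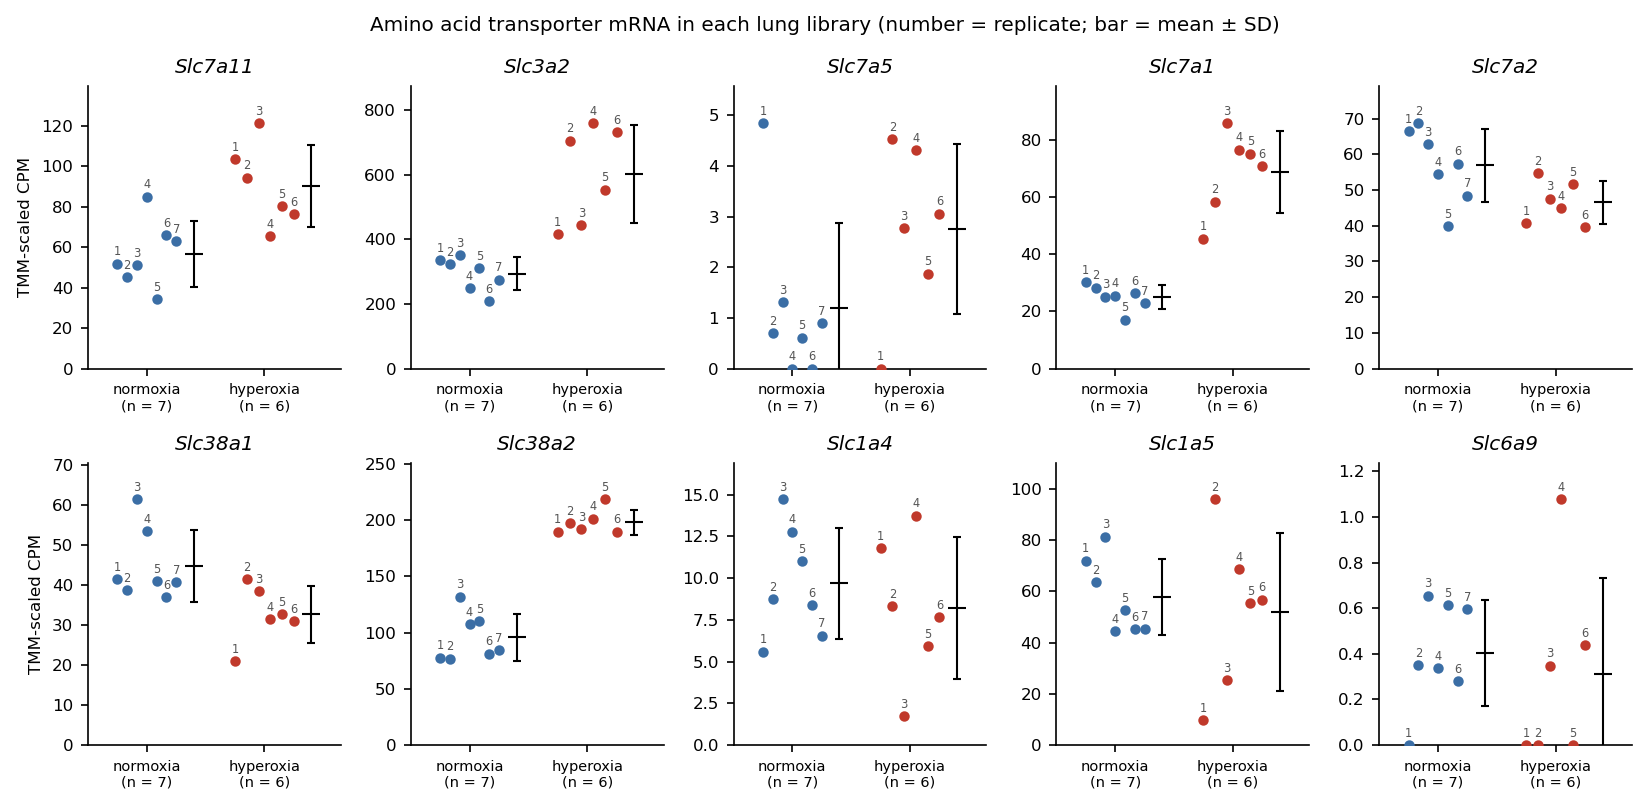
TMM-scaled CPM of the 10 transporters in each library, on a linear axis from 0 that differs between panels. Points are libraries numbered by replicate, bars are the mean ± SD, and lower bars are cut at 0 for Slc7a5 and Slc6a9. All 6 hyperoxic libraries lie above all 7 normoxic libraries for Slc3a2, Slc7a1 and Slc38a2, while the groups overlap for the other 7 genes.

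**Figure D2:**
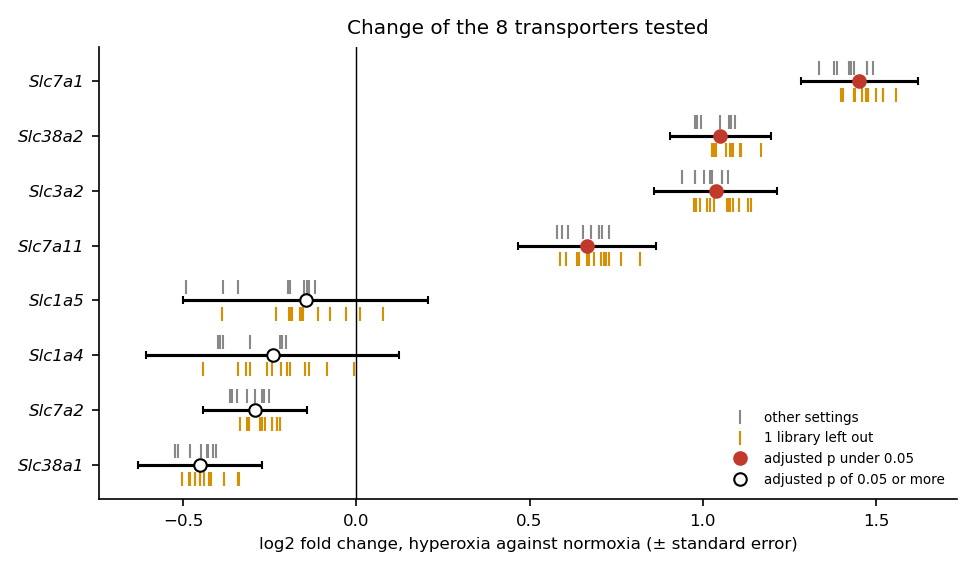
Log2 fold change of hyperoxia against normoxia for the 8 transporters tested, with bars for the standard error. Ticks above a bar give the values under other settings and ticks below it the values with 1 library left out. Slc7a1, Slc38a2, Slc3a2 and Slc7a11 stay above 0 throughout, while Slc1a5 reaches 0.077 when Hyperoxia 1 is left out.

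Slc7a11 (xCT), the light chain that carries cystine, spans chr3:49892526-50443614 on the minus strand of GRCm38. Its levels were 34.3 CPM at the lowest, 51.9 at the median and 85.1 at the highest in normoxia, and 65.4, 87.4 and 122 in hyperoxia. The groups overlapped: Normoxia 4 (85.1 CPM) lay above 3 of the hyperoxic libraries and Normoxia 6 (66.1 CPM) above 1, Hyperoxia 4. The mean went from 56.6 ± 16.5 CPM (SD, n = 7) to 90.3 ± 20.4 (SD, n = 6), a 1.59-fold difference, and the log2 fold change was 0.67 (SE 0.20, edgeR adjusted p = 0.0244). The call was lost without Normoxia 2 (0.64, edgeR adjusted p = 0.0517) and without Hyperoxia 3 (0.59, edgeR adjusted p = 0.0521). It was the weakest of the 4 calls.

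Slc3a2, the heavy chain shared by several light chains, lies at chr19:8706882-8723369 on the minus strand. It had 209 CPM at the lowest, 310 at the median and 351 at the highest in normoxia. In hyperoxia these values were 415, 629 and 761. Every hyperoxic library was above every normoxic one, with the 2 lowest hyperoxic values in Hyperoxia 1 (415) and Hyperoxia 3 (444). The mean rose 2.05-fold, from 293 ± 51.3 CPM (SD, n = 7) to 602 ± 152 (SD, n = 6), with a log2 fold change of 1.04 (SE 0.18, edgeR adjusted p = 0.000636).

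Slc7a5 (LAT1), the light chain for leucine and other large neutral amino acids, lies at chr8:121881150-121907694 on the minus strand. It had low counts, 79 in all 13 libraries and 0 to 16 in each. Its CPM in normoxia was 0 at the lowest, 0.699 at the median and 4.85 at the highest, and in hyperoxia 0, 2.92 and 4.53. In hyperoxia, 5 of 6 hyperoxic libraries were above all normoxic ones except Normoxia 1, and Hyperoxia 1 had no count. Without a filter on low counts the log2 fold change was 1.27 (edgeR adjusted p = 0.275), which did not pass.

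The chains were also compared within each library, since a ratio of 2 genes in the same library does not depend on scaling. Counts here are not normalized for length, so differences in a ratio are described and not which gene is the more abundant. The log2 ratio of Slc7a11 to Slc3a2 was -2.39 ± 0.62 in normoxia (SD, n = 7) and -2.72 ± 0.67 in hyperoxia (SD, n = 6), a difference of -0.33 (two-sided exact permutation test over 1716 divisions of the libraries, p = 0.369, adjusted over 5 ratios 0.615). For Slc7a5 to Slc3a2 the difference was -0.02 (exact permutation p = 0.961, adjusted 0.961), but 3 libraries had no Slc7a5 count, so that their values were set by the prior count. Its sign turned with a prior count of 0.5 (0.39), without Normoxia 1 (0.26) and without Hyperoxia 1 (0.30), and it was 0.0060 without Normoxia 3 and 0.0075 without Normoxia 7, so no direction is given. Neither ratio passed the test. Levels of the chains were also correlated across the libraries of a group, and no relation of the 4 examined passed after adjustment. For Slc7a11 and Slc3a2 in hyperoxia (n = 6), Pearson's r was -0.79 (exact permutation p = 0.0708, adjusted 0.0944) and Spearman's rho -0.89 (exact permutation p = 0.0333, adjusted 0.0666), and r was -0.31 without the 2 libraries farthest from the median of Slc3a2. In normoxia (n = 7) r was -0.65 (exact permutation p = 0.121, adjusted 0.121), rho was -0.64 (exact permutation p = 0.139, adjusted 0.139) and r without those 2 libraries was -0.26. Among hyperoxic libraries, Slc7a11 was at least 6.57 log2 CPM in those lettered B to M and at most 6.34 in those lettered O to S. The permutation took no account of the letters, so the relation in hyperoxia cannot be told apart from them. For Slc7a5 and Slc3a2, r was 0.76 in normoxia (exact permutation p = 0.048, adjusted 0.0944, rho 0.85 with exact permutation p = 0.0254, adjusted 0.0666) and 0.43 without the 2 farthest. In hyperoxia r was also 0.76 (exact permutation p = 0.0222, adjusted 0.0888, rho 0.77 with exact permutation p = 0.103, adjusted 0.137), and 0.86 without the 2 farthest.

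The carriers of cationic amino acids, Slc7a1 (CAT-1) and Slc7a2 (CAT-2), both bring arginine, lysine and ornithine into the cell, and their log2 fold changes had opposite signs. Slc7a1 (chr5:148327410-148399904, minus strand) had 17.2 CPM at the lowest, 25.6 at the median and 30.2 at the highest in normoxia, against 45.6, 73.2 and 86.2 in hyperoxia. The groups were fully apart, and the lowest hyperoxic value, in Hyperoxia 1, was above the highest normoxic value. The mean rose 2.74-fold, from 25.1 ± 4.22 CPM (SD, n = 7) to 68.9 ± 14.5 (SD, n = 6), with a log2 fold change of 1.45 (SE 0.17, edgeR adjusted p = 2.3e-05). This was the largest fold change of the 8 transporters tested.

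Slc7a2 (chr8:40862396-40922308, plus strand) had 39.8 CPM at the lowest, 57.4 at the median and 68.8 at the highest in normoxia, and 39.6, 46.3 and 54.8 in hyperoxia. The groups overlapped. The means were 56.9 ± 10.3 CPM (SD, n = 7) and 46.5 ± 5.99 (SD, n = 6), and the log2 fold change of -0.29 (SE 0.15) did not pass (edgeR adjusted p = 0.181). The difference between the 2 genes was larger than the spread between libraries. Within libraries, Slc7a1 to Slc7a2 went from a log2 ratio of -1.16 ± 0.09 in normoxia (SD, n = 7) to 0.54 ± 0.34 in hyperoxia (SD, n = 6), a difference of 1.70 with no overlap (exact permutation p = 0.000583, the smallest this design can give, adjusted 0.00146).

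Slc38a1 (SNAT1) and Slc38a2 (SNAT2) are sodium-coupled carriers of small neutral amino acids such as glutamine and alanine, and both lie on chromosome 15 on the minus strand. Slc38a2 (chr15:96687392-96699730) had 76.9 CPM at the lowest, 84.2 at the median and 132 at the highest in normoxia, against 190, 195 and 218 in hyperoxia. Hyperoxic levels of this gene were tight and lay wholly above the normoxic ones. The mean rose 2.07-fold, from 95.7 ± 21.1 CPM (SD, n = 7) to 198 ± 10.97 (SD, n = 6), with a log2 fold change of 1.05 (SE 0.14, edgeR adjusted p = 0.000106).

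Slc38a1 (chr15:96571418-96642913) had 37.1 CPM at the lowest, 41.0 at the median and 61.5 at the highest in normoxia, and 20.9, 32.2 and 41.6 in hyperoxia. The groups overlapped, and the lowest value was in Hyperoxia 1. The means were 44.9 ± 9.05 CPM (SD, n = 7) and 32.7 ± 7.16 (SD, n = 6), and the log2 fold change of -0.45 (SE 0.18) did not pass (edgeR adjusted p = 0.0813). It passed, as lower in hyperoxia, under library size scaling alone (-0.52, edgeR adjusted p = 0.0478). Within libraries, the log2 ratio of Slc38a1 to Slc38a2 fell by 1.53, from -1.08 ± 0.17 in normoxia (SD, n = 7) to -2.60 ± 0.33 in hyperoxia (SD, n = 6), with no overlap (exact permutation p = 0.000583, adjusted 0.00146).

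**Figure D3:**
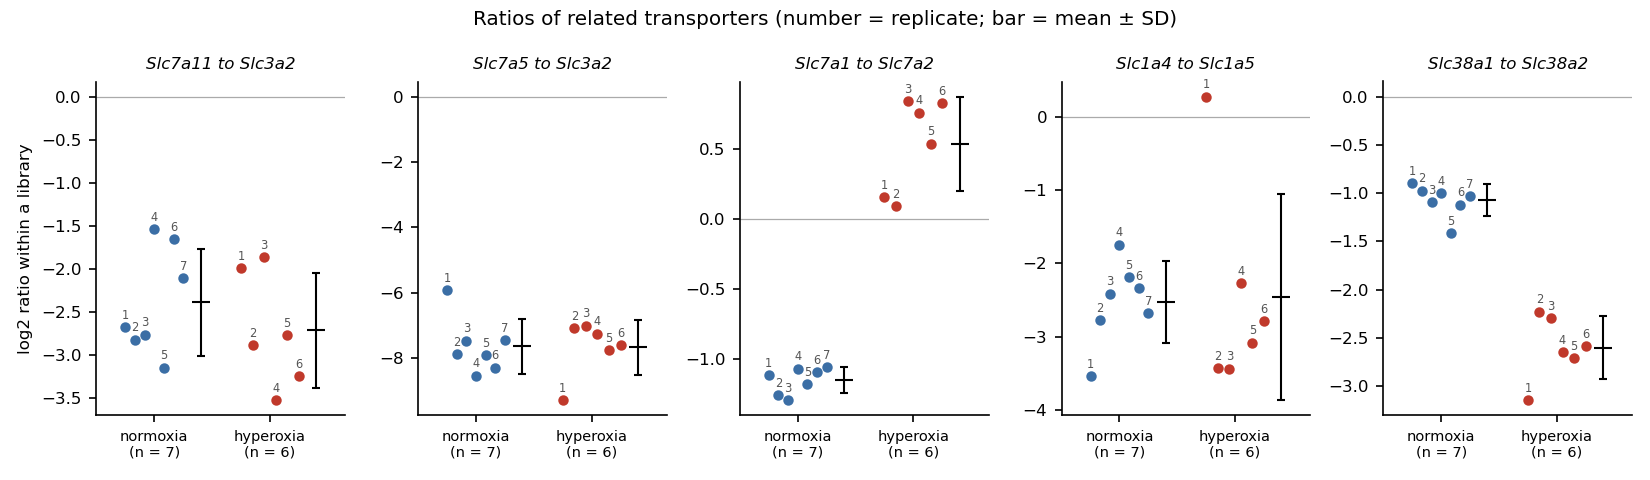
Log2 ratio of 5 pairs of related transporters within each library, with a separate linear axis for each panel. Points are libraries numbered by replicate, bars are the mean ± SD, and the line marks a ratio of 0 on the log2 scale. The groups lie apart for Slc7a1 to Slc7a2, higher in hyperoxia, and for Slc38a1 to Slc38a2, lower in hyperoxia, and overlap for the other 3.

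Slc1a4 (ASCT1) and Slc1a5 (ASCT2) exchange alanine, serine and cysteine, and Slc1a5 also carries glutamine. Slc1a5 (chr7:16781340-16798274, plus strand) had 44.4 CPM at the lowest, 52.7 at the median and 81.4 at the highest in normoxia, and 9.65, 56.1 and 96.0 in hyperoxia. The hyperoxic libraries held both extremes, with 9.65 CPM in Hyperoxia 1, 25.4 in Hyperoxia 3 and 96.0 in Hyperoxia 2. The means were 57.8 ± 14.8 CPM (SD, n = 7) and 52.0 ± 30.8 (SD, n = 6), and the log2 fold change was -0.15 (SE 0.35, edgeR adjusted p = 0.809). It was 0.077 without Hyperoxia 1 and 0.012 without Hyperoxia 3, so its sign rests on these libraries.

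Slc1a4 (chr11:20302180-20332713, minus strand) had 5.60 CPM at the lowest, 8.74 at the median and 14.7 at the highest in normoxia, and 1.74, 7.98 and 13.7 in hyperoxia. The groups overlapped, with Hyperoxia 3 (1.74 CPM) below every normoxic library. The means were 9.68 ± 3.32 CPM (SD, n = 7) and 8.19 ± 4.26 (SD, n = 6), and the log2 fold change of -0.24 (SE 0.36) did not pass (edgeR adjusted p = 0.683). It was -0.0056 without Hyperoxia 3 and -0.44 without Hyperoxia 4. The log2 ratio of Slc1a4 to Slc1a5 was -2.53 ± 0.56 in normoxia (SD, n = 7) and -2.46 ± 1.41 in hyperoxia (SD, n = 6), a difference of 0.07 (exact permutation p = 0.934, adjusted 0.961). It was 0.27 in Hyperoxia 1 and at most -2.27 in the other 5 hyperoxic libraries. The difference turned to -0.48 without Hyperoxia 1 (exact permutation, adjusted p = 0.269) and to -0.10 without Normoxia 1 (exact permutation, adjusted p = 0.935).

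Slc6a9 (GLYT1), a sodium- and chloride-coupled glycine carrier at chr4:117834506-117875198 on the plus strand, was at the limit of detection. It had 15 counts in all libraries together and 0 to 4 in each, and a difference was not detectable at this depth. Its CPM in normoxia was 0 at the lowest, 0.349 at the median and 0.654 at the highest, and in hyperoxia 0, 0.174 and 1.08. Its last exons overlap Ccdc24, B4galt2 and Gm17114 on the opposite strand, and whether reads were assigned by strand is not given in the sources used here. The last exons of the other 9 transporters overlap no annotated gene (GENCODE M21).

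In the letter sets B to M and O to S taken apart, the difference in mean log2 CPM had the same sign for Slc7a1 (1.28 and 1.57), Slc38a2 (0.96 and 1.29), Slc3a2 (0.70 and 1.49) and Slc7a11 (1.04 and 0.19). The groups did not overlap within either set for the first 3 of these genes. For Slc7a11 they did not overlap in B to M and overlapped in O to S. The sign was also the same in both sets for Slc38a1 (-0.52 and -0.28), Slc7a2 (-0.27 and -0.22) and Slc7a5 (0.46 and 1.83). Slc1a5 (-1.07 and 0.40) and Slc1a4 (-0.73 and 0.20) had opposite signs. In O to S, with 2 normoxic libraries, the groups also did not overlap for Slc1a5 and Slc7a5, both higher in hyperoxia, and for Slc38a1, lower. In B to M they overlapped for these 3 genes. Slc7a5 had 0 and 3 counts in the 2 normoxic libraries of O to S. The share of all genes without overlap within a set was not computed, and groups this small can lie apart by chance. The log2 ratio of Slc7a11 to Slc3a2 differed by 0.34 in B to M and by -1.30 in O to S. A test of the difference between the sets, added after seeing the data, called 0 of 12496 genes in edgeR (1158 at an unadjusted p under 0.05). Chance alone would put a share of about 0.05 of the genes there, and 1158 is a larger share. Slc3a2 was among those 1158 and Slc7a11 and Slc1a5 were not. The effect differed, O to S minus B to M, by 0.76 for Slc3a2 (edgeR adjusted p = 0.538), -0.79 for Slc7a11 (edgeR adjusted p = 0.539) and 0.92 for Slc1a5 (edgeR adjusted p = 0.633). None passed after adjustment, which does not show that the sets agree.

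**Figure D4:**
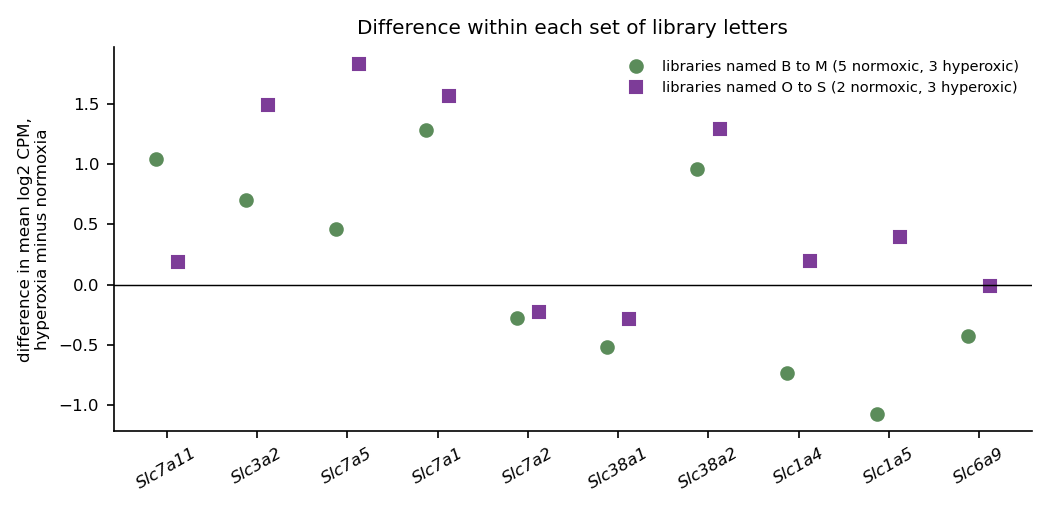
Difference in mean log2 CPM, hyperoxia minus normoxia, of the 10 transporters within letter sets B to M (5 normoxic, 3 hyperoxic) and O to S (2 normoxic, 3 hyperoxic). Slc7a1, Slc38a2, Slc3a2, Slc7a11 and Slc7a5 lie above 0 in both sets, while Slc1a4 and Slc1a5 change sign.

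Of 39 further amino acid transporters, 23 were tested, of which 1 rose and 5 fell (26.1% called, median log2 fold change -0.20), a share near the 22.6% called among all genes tested. Slc7a6, another cationic and neutral exchanger that pairs with Slc3a2, rose from 12.2 ± 2.99 to 30.3 ± 15.1 CPM (SD, log2 fold change 1.32, edgeR adjusted p = 0.00416). Slc36a2, a proton-coupled carrier of small amino acids, fell from 24.3 ± 3.74 to 10.1 ± 2.41 CPM (-1.26, edgeR adjusted p = 0.00026). Slc7a10, an exchanger of small neutral amino acids that also pairs with Slc3a2, fell from 15.3 ± 4.34 to 5.65 ± 1.06 CPM (-1.42, edgeR adjusted p = 0.000539). Slc38a5, a glutamine carrier of the Slc38 family, fell from 13.03 ± 4.27 to 2.50 ± 1.55 CPM (-2.31, edgeR adjusted p = 0.00125). Slc1a2 and Slc1a3, carriers of glutamate and named after their values were seen, also fell (-1.69, edgeR adjusted p = 0.00922, and -0.57, edgeR adjusted p = 0.0322). Without Hyperoxia 1, 3 of 25 tested were higher and 5 lower. Slc7a9 and Slc7a12 had 0 counts in all libraries.

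Of 31 tested genes of the amino acid response, 19 rose and 0 fell (median log2 fold change 1.12, 61.3% called against 22.6% of all genes tested). At an unadjusted p under 0.05, 21 were higher and 0 lower in edgeR, and the adjusted counts were 21 and 0 with DESeq2, 17 and 0 with limma-voom and 17 and 0 with limma on log CPM. Without Hyperoxia 1, 22 of 32 were higher and 1 lower. Their summed level was 994 to 1087 CPM in normoxia and 2003 to 2828 in hyperoxia. Atf4 rose from 70.7 ± 11.1 to 265 ± 44.2 CPM (SD, log2 fold change 1.91, edgeR adjusted p = 4.3e-07). Mthfd2 of mitochondrial folate metabolism rose from 8.16 ± 2.13 to 73.3 ± 21.0 CPM (3.16, edgeR adjusted p = 2.5e-07), and Psat1 of serine synthesis from 9.16 ± 2.11 to 62.0 ± 19.2 (2.76, edgeR adjusted p = 6.8e-07). Aars, which charges tRNA with alanine, had a log2 fold change of 1.21 (edgeR adjusted p = 1.5e-05). The libraries did not overlap for 12 of the 31, all higher, as for 5.6% of all genes tested.

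Among NRF2 and its targets, 8 of 24 tested rose and 0 fell (median 0.53, 33.3% called against 22.6% of all genes tested). The count of higher genes was 16 without Hyperoxia 1, and 1 gene was lower without Hyperoxia 2 or without Normoxia 6. At an unadjusted p under 0.05, 12 were higher and 1 lower in edgeR, and the adjusted counts were 9 and 0 with DESeq2, 7 and 0 with limma-voom and 6 and 0 with limma on log CPM. Txnrd1, a thioredoxin reductase, rose from 57.0 ± 7.57 to 204 ± 26.2 CPM (SD, log2 fold change 1.84, edgeR adjusted p = 2.2e-07). Srxn1, which repairs peroxiredoxins, had a log2 fold change of 2.47 (edgeR adjusted p = 1.4e-06). The summed level of this list ranged from 3775 to 5802 CPM in normoxia and from 3692 to 9205 in hyperoxia, with the lowest value in Hyperoxia 1.

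Of 16 tested genes that use the carried amino acids, 7 rose and 0 fell (median 0.53, 43.8% called against 22.6% of all genes tested). At an unadjusted p under 0.05, 8 were higher and 0 lower in edgeR, and each of DESeq2, limma-voom and limma on log CPM called 7 higher and 0 lower. The subunits of the enzyme that makes the first bond of glutathione from glutamate and cysteine both rose, Gclc from 215 ± 30.2 to 928 ± 315 CPM (SD, log2 fold change 2.11, edgeR adjusted p = 3.2e-06) and Gclm from 82.3 ± 14.9 to 228 ± 71.0 (1.47, edgeR adjusted p = 5.8e-05). Both also belong to the NRF2 list. Odc1, which turns ornithine into putrescine, rose from 123 ± 17.5 to 569 ± 136 CPM (2.21, edgeR adjusted p = 3.0e-07). Nos3, which makes nitric oxide from arginine, rose from 18.7 ± 4.96 to 70.9 ± 26.0 (1.92, edgeR adjusted p = 4.3e-05).

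Of 20 tested genes through which amino acids reach the kinase complex mTORC1, 2 rose and 3 fell (25% called, median -0.03), a share near the 22.6% of all genes tested. Sesn2, a leucine sensor that the amino acid response list also holds, and Rragd, a GTPase of the lysosomal surface, rose (log2 fold change 2.49, edgeR adjusted p = 0.000715, and 1.31, edgeR adjusted p = 0.00493). The related Sesn3 and Sesn1 fell (-0.95, edgeR adjusted p = 0.00171, and -1.25, edgeR adjusted p = 0.013), as did Depdc5, of the complex that restrains mTORC1, which was named after its values were seen (-0.80, edgeR adjusted p = 0.0344). The lists share few genes, and none of them holds any of the 10 transporters.

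**Figure D5:**
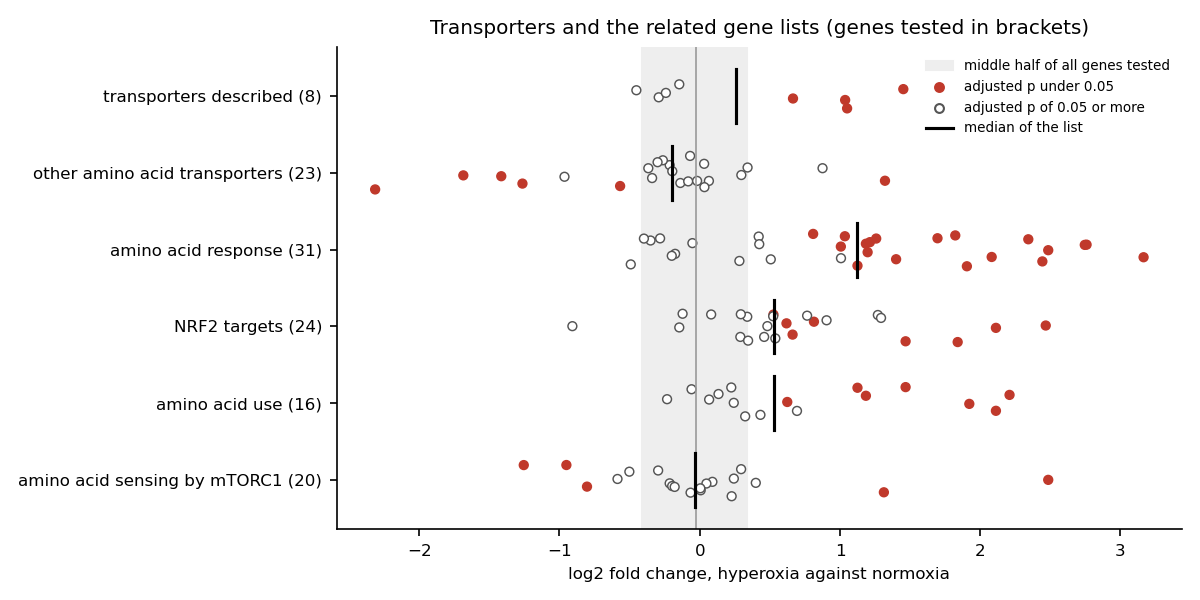
Log2 fold change of hyperoxia against normoxia for each gene tested in the transporters described and 5 related gene lists. Filled points passed an adjusted p of 0.05 in edgeR, black bars are list medians, the grey line is the median of all genes (-0.03) and the grey band holds their middle quartiles. The medians lie at 1.12 for the amino acid response and at -0.20 for the other amino acid transporters.

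Markers of several lung cell types moved with oxygen in the same libraries. Among all genes tested, 22.6% were called, 11.8% higher and 10.8% lower. Of 10 alveolar type 2 markers tested, 7 fell and 0 rose (median log2 fold change -1.71), with all 10 counted in every library and a summed level of 12984 to 24100 CPM in normoxia and 3446 to 7548 in hyperoxia. Of 9 airway epithelium markers tested, 4 fell (median -1.26), with sums of 14701 to 53410 and 288 to 10351 CPM, the lowest in Hyperoxia 1. Sftpc, a surfactant protein of type 2 cells, went from a mean of 9637 to 1465 CPM (-2.72, edgeR adjusted p = 0.00418), and Scgb1a1, of airway club cells, from 33862 to 4349 CPM (-2.96, edgeR adjusted p = 0.00188). Of 7 lymphocyte markers tested, 6 fell (median -1.69), with sums of 143 to 196 and 36.5 to 92.7 CPM. Macrophage and monocyte markers fell in 6 and rose in 1 of 15 tested (2 without Normoxia 3 or without Hyperoxia 1), with sums of 621 to 918 and 590 to 996 CPM. Mesenchyme markers rose in 3 and fell in 1 of 9, endothelial markers rose in 1 and fell in 3 of 10, and alveolar type 1 markers rose in 1 and fell in 1 of 10, small counts that moved by at most 1 gene when a library was left out. The share called was 20% for alveolar type 1 markers and 28.6% for erythroid and platelet markers, both near that of all genes. Erythroid and platelet markers fell in 2 of 7, and in 5 of 8 without Hyperoxia 2, whose summed level was 2916 CPM, against 203 to 494 in the other hyperoxic libraries and 240 to 3452 in normoxia. Neutrophil markers passed in 0 of 6 and cell cycle markers in 0 of 8 in edgeR, with 1 and 2 lower at an unadjusted p under 0.05, and DESeq2, limma-voom and limma on log CPM each called 1 lower in either list. With a library left out, 0 to 2 neutrophil and 0 to 1 cell cycle markers were lower, the 2 without Hyperoxia 4. No marker of any list was at 0 in all libraries of a group. The part of these cell types in the transporter changes was not tested. Without Hyperoxia 1, the log2 fold changes were 1.56 for Slc7a1, 1.08 for Slc38a2, 1.14 for Slc3a2 and 0.64 for Slc7a11, and all 4 stayed past the threshold (largest edgeR adjusted p = 0.0268, for Slc7a11).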

How the data were processed

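Lung RNA from 7 normoxic and 6 hyperoxic samples was sequenced by Quant-seq on a NovaSeq. The authors quantified reads with kallisto in BioJupies, and the submitters' processing notes name mm10 and limma 3.54.2. The annotation and the use of strand are not given in the sources used here. They deposited whole-number counts for 32544 gene symbols, 12826 of them without a count, and log10 values, which equal log10 of CPM plus 1 as recomputed from the counts (largest gap 4.44e-16). Conditions and replicate numbers came from the sample labels.

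The deposited counts were tested with edgeR 4.0.16 in R 4.3.3 (TMM, filterByExpr, glmQLFit and glmQLFTest) for Hyperoxia against Normoxia, with Benjamini-Hochberg adjustment over 12496 genes and a threshold of 0.05. The standard error is the log2 fold change over the root of F. Levels are TMM-scaled CPM, and log2 CPM used a prior count of 2. Ratios and correlations were tested with exact permutation written in Python 3.11.15 with numpy 2.4.6, and scipy 1.17.1 gave the ranks. The quasi-likelihood fit was tested on simulated counts, and the alternative fits were not. The transporters and gene lists were chosen with earlier results of these data known. The lists were written from general knowledge, and 4 of their symbols (Mars1, Castor1, Castor2 and Bmt2) had no match in the count table. Named were all 10 transporters, up to 4 genes with the smallest adjusted p from each pathway list, markers among the 3 most abundant of a list, and list genes without a count.

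Alternatives were DESeq2 1.42.0, limma-voom and limma on the deposited log values (limma 3.58.1), RLE or library size scaling, leaving out the filter or asking for 10 counts in each library, a block for the replicate number, a term for the letter set, values within each letter set, a prior count of 0.5 and each library left out in turn. The test of the difference between letter sets, the counts of the gene lists under these settings and the longer Slc7a11 stretch were added after seeing the data. Coordinates are from GENCODE M21 on GRCm38, matched by symbol, and promoter windows from RefSeq on GRCm38.p6.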

Additional observations from a re-analysis of the deposited data

Results flagged for a closer look

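In all, 5 of 34 series of values (the CPM of each transporter, each ratio, the total counts and the share of counts in the 10 transporters together, in each group) held a library far from the others of its group by Dixon's criterion at 95%, where chance gives about 1.7. Slc7a5 had 4.85 CPM in Normoxia 1, against 0 to 1.31 in the other normoxic libraries. The log2 ratio of Slc7a5 to Slc3a2 was -5.93 in that library, against -8.55 to -7.47 in the others, and -9.29 in Hyperoxia 1, where Slc7a5 had 0 counts, against -7.77 to -7.01 in the other hyperoxic libraries. The log2 ratio of Slc1a4 to Slc1a5 was 0.27 in Hyperoxia 1, against -3.44 to -2.27. The total count of Normoxia 5 was 1607111, against 2696280 to 3387736 in the other normoxic libraries. The causes were not tested.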

How the results depend on the processing

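The calls of Slc7a1, Slc38a2 and Slc3a2 held in every fit, including those with a library left out, with log2 fold changes of 1.34 to 1.56, 0.98 to 1.17 and 0.94 to 1.14. Transporters called higher numbered 3 to 4, since Slc7a11 lost its call under the replicate block (0.73, edgeR adjusted p = 0.093) and without Normoxia 2 or Hyperoxia 3 (0.64 and 0.59). Transporters called lower numbered 0, or 1, Slc38a1, with limma on the log CPM table (-0.52, limma adjusted p = 0.0453), library size alone (-0.52, edgeR adjusted p = 0.0478) and at least 10 counts in every library (-0.51, edgeR adjusted p = 0.048). They stayed at 0 with each library left out. The replicate block lowered the calls over all genes from 2819 to 1344, against 2305 to 3633 with a library left out. Under it, 13 of 31 amino acid response genes, 5 of 24 NRF2 targets and 4 of 16 genes of amino acid use were higher, and 0 lower. Of the markers, 6 of 10 alveolar type 2, 3 of 9 airway and 6 of 7 lymphocyte markers were lower. Macrophage and monocyte markers had 1 higher and 1 lower, mesenchyme 1 and 0, and endothelium 0 and 1. Libraries that share a number showed little sign of pairing, which this measure cannot exclude. The correlation of their deviations was above 0.1 for 1 of 6 numbers (0.27 for number 2, -0.33 to -0.07 for the others). Under the block the ratio of Slc7a1 to Slc7a2 differed by 1.71 and that of Slc38a1 to Slc38a2 by -1.52 (both adjusted p = 0.0781, where 6 pairs allow no raw p below 0.0312), and that of Slc7a5 to Slc3a2 by 0.0075. With libraries left out, these ratios ranged over 1.63 to 1.78, -1.60 to -1.42 and -0.17 to 0.30. Slc7a5 to Slc3a2 also turned to 0.39 with a prior count of 0.5. Slc1a4 to Slc1a5 ranged over -0.48 to 0.27 and Slc7a11 to Slc3a2 over -0.50 to -0.16 with libraries left out, the latter being 0.34 within B to M and -1.30 within O to S. Slc1a5 turned to 0.077 without Hyperoxia 1 and 0.012 without Hyperoxia 3, and was -0.39 without Hyperoxia 2. The cause was not tested. Slc7a5 had 0 to 16 counts in a library and Slc6a9 0 to 4, too few for the filter.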
